A study of Mus musculus with 18 samples.

Results

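Neuro2A cells, a mouse neuroblastoma line, were followed between 36 h and 60 h after they had received TATA-binding protein (TBP) with an expanded polyglutamine tract. Of the 18 miRNA arrays of the series, 6 made up the comparison: the 3 arrays of 59Q-TBP cells at 60 h and the 3 of 59Q-TBP cells at 36 h, chosen by the construct and time in the sample labels. All samples were the same line (strain A, per the labels), transfected with the Amaxa nucleofection kit, which delivers DNA by an electrical pulse. The construct fused 59Q-TBP to green fluorescent protein (GFP), and the counterpart used for comparison, 16Q-TBP, was also fused to GFP and sampled in 3 replicates at 24, 36 and 60 h. Transfection was transient, no untransfected cells were analysed here, and no label names a selection of transfected cells. Every group therefore carried an added TBP fusion protein, and its level was not measured on a miRNA array. The labels call the replicates biological without saying whether they were separate cultures, so p-values measure only the spread between these samples.

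TBP takes part in transcription by all nuclear RNA polymerases, and spinocerebellar ataxia type 17 is caused by an expanded glutamine tract in it. miRNAs are short RNAs that guide Argonaute proteins to messenger RNAs, chiefly through the seed, bases 2 to 8 of the mature strand, and lower the stability or translation of those targets. Related miRNAs with 1 seed can share targets, and many are cut from common primary transcripts. In neural cells, stress, inflammation, hypoxia and activity each have well known miRNAs, such as miR-210, which hypoxia-inducible factor induces, miR-146a, which NF-kappaB induces, and miR-132 and miR-212, which CREB induces.

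The sequences below are those of the miRNAs on which the comparison turned and of the families that share their seeds. They are the RefSeq mature strands of GRCm38.p6, written 5′ to 3′ with the seed in capitals, and all 13 entries looked up were matched. Mir210 lies on chromosome 7, Mir146 (miR-146a) on chromosome 11 and Mir322 on the X chromosome.
miR-210: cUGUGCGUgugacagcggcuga
miR-146a: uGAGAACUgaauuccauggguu
miR-322: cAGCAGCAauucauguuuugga
miR-16: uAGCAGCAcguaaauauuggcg
miR-15a: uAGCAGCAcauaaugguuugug
miR-195: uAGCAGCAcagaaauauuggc
miR-29a: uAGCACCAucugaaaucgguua
miR-29b: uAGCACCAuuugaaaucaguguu
miR-29c: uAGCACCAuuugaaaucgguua
miR-103: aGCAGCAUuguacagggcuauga
miR-107: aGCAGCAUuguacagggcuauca
miR-132: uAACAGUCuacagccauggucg
miR-212: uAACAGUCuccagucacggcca
miR-322, miR-16, miR-15a and miR-195 share the seed AGCAGCA, and miR-322 differs from miR-16 at 10 of the 22 positions compared. miR-29a and miR-29c differ at 1 of 22 positions, and miR-103 and miR-107 at 1 of 23, so probes for one could also bind the other. How far they share signal was not tested. miR-132 and miR-212 share the seed AACAGUC and differ at 5 of 22 positions.

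Signals were spot intensities of a 1-colour Agilent array, divided by each array's 75th percentile over the 290 probes detected throughout and taken to log2 (the log2 scaled signal), with a floor of -4.11. A miRNA was tested where a probe for it cleared background (the scanner software's call) in every replicate of some group, which left 226 of 566 mouse entries. On the 6 arrays between 26.5% and 35.0% of spots cleared it, and precision is limited by how few arrays there were. Of the 226 miRNAs, 71 were not well above background on at least 1 of the 6. The other 340 entries could not be tested, and 287 of those were well above background on none of the 6 arrays.

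By their median correlation with the other 17 arrays of the series, 2 of the 6 arrays stood apart. Across the 226 miRNAs it was 0.759 for replicate 2 at 36 h and 0.762 for replicate 1 at 60 h. The other 59Q arrays at these times had 0.859 to 0.929. The correlation between these 2 was 0.544, the lowest of any pair among the 6 arrays. Within the 6 arrays, however, replicate 2 at 36 h was close to replicate 3 at 36 h (0.951) and to replicate 3 at 60 h (0.917). Its correlation was 0.803 with replicate 1 at 36 h and 0.725 with replicate 2 at 60 h. Replicate 3 at 36 h and replicate 3 at 60 h, of different times, had a correlation of 0.981. The slide also differed: all 36 h arrays and replicate 1 at 60 h lay on slide 2, and replicates 2 and 3 at 60 h lay alone on slide 3. Of the neuronal markers on the array, miR-125b-5p was detected on all 6 arrays, miR-7a on 1 array at each time, miR-137 on 1 array at 60 h, and miR-124 and miR-9 on none. The markers of blood, liver, endothelium and epithelium were detected on none of the 6 arrays. Of 4 muscle markers only miR-206 was detected, on 3 arrays at 36 h and 1 at 60 h, and the fibroblast markers miR-143 and miR-145 were detected on 6 and 4 arrays.

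Between 36 h and 60 h, 2 of 226 miRNAs rose in 59Q-TBP cells and none fell (limma, adjusted p under 0.05). The share called was 0.885% for rises and 0% for falls, and at an unadjusted p under 0.05 limma gave 25 miRNAs (11.1%) higher and 2 (0.885%) lower. The 2 that rose were miR-210, the miRNA typical of hypoxia, and miR-146a, a brake on NF-kappaB signalling. In bulk RNA, a change in the share of cells with a miRNA and a change in its level per cell cannot be told apart. With the percentile taken over all mouse probes in place of the 290, the split was 2 higher and 1 lower, miR-322. Both calls were lost with normexp background correction, without scaling between arrays, with the authors' deposited log2 table and in a fit of the 6 arrays alone.

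miR-210 was at a log2 scaled signal of -3.10, -3.86 and -3.51 in replicates 1 to 3 at 36 h. It was at -1.67, -1.75 and -2.16 at 60 h. Every 60 h array lay above every 36 h array, by more than the spread within either time. The difference was 1.63 on the log2 scale (SE 0.252, n = 3 arrays at each time, limma adjusted p = 0.00165), a 3.09-fold rise. Its probes gave differences of 1.54 and 1.72, although one of them was well above background on only 2 of the 3 arrays at 36 h. The 60 h arrays of both slides lay higher, with replicate 1 at 60 h 1.82 and replicates 2 and 3 on average 1.53 above the 36 h mean. Without the 2 arrays that stood apart it was 1.35 (limma adjusted p = 0.0266). With the floor 4 times higher the difference was 0.30 (limma adjusted p = 0.0219), and with normexp background correction it was 0.61 (adjusted p = 0.512).

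miR-146a was at -1.73, -2.48 and -2.06 at 36 h. It was at -0.34, -0.72 and -1.17 at 60 h, again with every 60 h array above every 36 h array. The difference was 1.35 (SE 0.275, n = 3 arrays at each time, limma adjusted p = 0.0174), a 2.55-fold rise. Its 3 probes differed by 1.34, 1.36 and 1.35. Replicate 1 at 60 h, on the slide of the 36 h arrays, was 1.75 above the 36 h mean, and the other two were on average 1.15 above it. The call was lost without replicate 2 at 36 h (1.15, limma adjusted p = 0.0947), without replicate 3 at 36 h (1.37, 0.0823), without replicate 1 at 60 h (1.15, 0.0930) and without replicate 2 at 60 h (1.34, 0.0796). Without both arrays that stood apart the difference was 0.95 (adjusted p = 0.305).

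**Figure D1:**
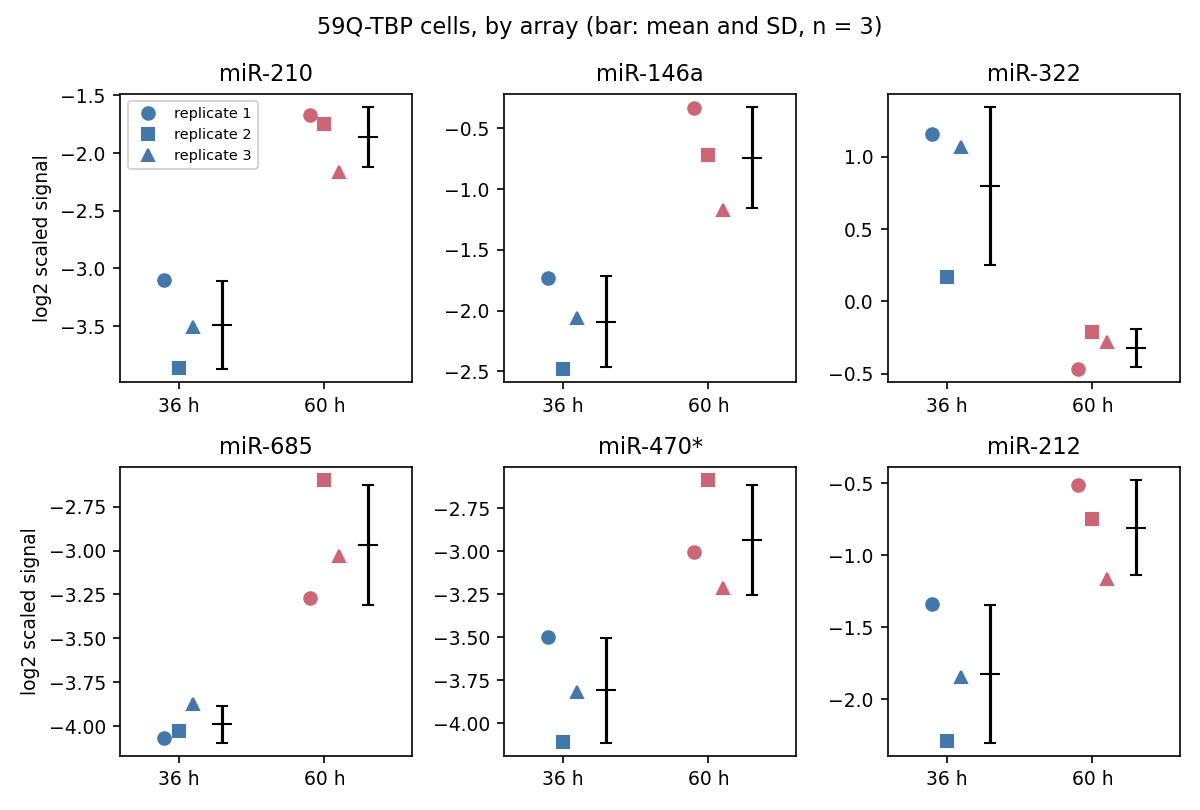
Log2 scaled signal (vertical axis) of 6 miRNAs on each 59Q-TBP array at 36 h (blue) and 60 h (red), with a marker shape for each replicate and the mean and SD (n = 3) as a black bar. The arrays of the 2 times do not overlap for any of the 6, and miR-210 and miR-146a are those past the threshold.

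The miRNA with the smallest p among those lower at 60 h was miR-322, a member of the miR-15/16 seed family that represses cell cycle genes. It was at 1.16, 0.17 and 1.07 at 36 h and at -0.47, -0.21 and -0.28 at 60 h. Every 60 h array lay below every 36 h array, but the difference of -1.12 (SE 0.287, n = 3 arrays at each time) missed the threshold (limma adjusted p = 0.0913). Without replicate 2 at 36 h, the lowest array of its time, it was -1.44 and passed (adjusted p = 0.00998), and without both arrays that stood apart it was -1.36 (0.0266). The values come from 1 of the 2 probes for miR-322, since the other was well above background on none of the 36 h arrays and 1 of the 60 h arrays. Averaged over both probes, with no filter on dim ones, the difference was -0.14.

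The other miRNAs with the smallest p in each direction missed the threshold. miR-685 was at -4.07, -4.03 and -3.87 at 36 h, close to the floor, and at -3.27, -2.60 and -3.03 at 60 h (difference 1.02, limma adjusted p = 0.189). miR-470*, from a miRNA cluster on the X chromosome, was at -3.50, -4.11 and -3.82 and then at -3.01, -2.59 and -3.21 (difference 0.87, adjusted p = 0.212). miR-212 was at -1.34, -2.29 and -1.85 and then at -0.51, -0.75 and -1.16 (difference 1.02, adjusted p = 0.212). For these 3 the arrays of the 2 times did not overlap.

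On the other side, miR-691 (difference -1.09), miR-452 (-0.68), miR-672 (-1.15) and miR-764-5p (-1.14) each had a limma adjusted p of 0.320. miR-691 was at -0.72, -1.17 and -0.88 at 36 h and at -3.05, -2.07 and -0.91 at 60 h. Its replicate 3 at 60 h thus lay within the 36 h arrays, and the lower mean came from the other two. miR-672 at 36 h ran from -2.82 to -0.75, a wider range than the difference between the times.

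Across all 226 miRNAs, 158 (69.9%) had a higher mean at 60 h and the median difference was 0.32. Every 60 h array lay above every 36 h array for 14 miRNAs (6.19%), and below for 2 (0.885%). The 14 were miR-210, miR-146a, miR-685, miR-470*, miR-212, miR-30d, miR-484, miR-338-5p, miR-138*, miR-33, miR-503, miR-487b, miR-686 and miR-22, and the 2 were miR-322 and miR-18a*. In 16Q-TBP cells every 60 h array lay above every 36 h array for 38 miRNAs (16.8%). Separate arrays alone are a description, since an exact permutation of 3 against 3 arrays cannot go below 0.1. miR-18a* was well above background on no 60 h array, so its 36 h mean was at least 1.19-fold higher (limma adjusted p = 0.356). The general upward shift depended on the scaling, since without scaling between arrays the median difference was 0.06. Relative to the median of all miRNAs, the differences were 1.31 for miR-210, 1.03 for miR-146a and -1.44 for miR-322. The 24 small RNA control probes detected on all 6 arrays had a median difference of 0.58, with 24 of 24 higher at 60 h, and 0.27 without scaling. The median of these probes on replicates 1 to 3 was 1.44, 0.57 and 0.94 at 36 h and 2.30, 1.11 and 1.30 at 60 h. Those arrays overlap.

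**Figure D2:**
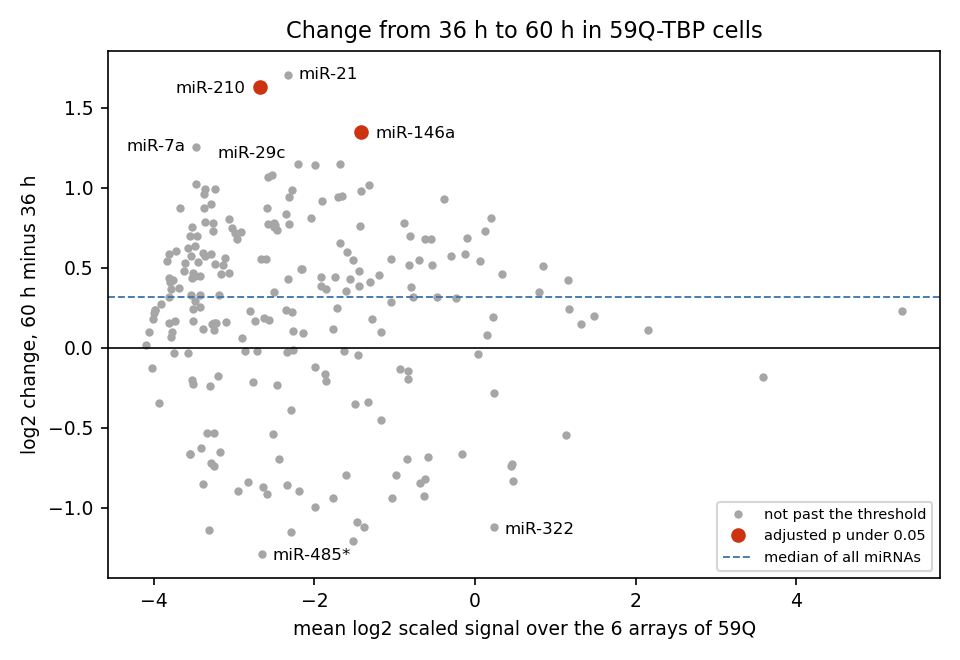
Difference between 60 h and 36 h (log2, vertical axis) against the mean log2 scaled signal over the 6 arrays (horizontal axis) for the 226 tested miRNAs of 59Q-TBP cells, with the median of 0.32 dashed. The 2 miRNAs past the threshold are red, while miR-21 lies above both in difference without passing the threshold.

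A large mean difference did not always mean separate arrays. miR-21, a miRNA of growth and stress signalling named here after its values were seen, had the largest difference of the 226 at 1.71 (SE 0.904, limma adjusted p = 0.320). It was at -2.07, -4.11 and -3.39 at 36 h and at 1.75, -2.96 and -3.23 at 60 h. Only replicate 1 at 60 h lay above the 36 h arrays, by 4.93 over their mean, while replicates 2 and 3 were on average 0.09 above it. miR-7a, a neuronal and endocrine miRNA, was likewise at -0.35 in replicate 1 at 60 h and at the floor on the other 5 arrays.

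Replicate 1 at 60 h was the only 60 h array on the slide of the 36 h arrays, so the within-slide comparison rests on it alone. Within slide 2, limma called 30 miRNAs higher and 8 lower, and with slide as a fixed block over all 18 arrays it called 49 and 10. Across the 226 miRNAs the difference of replicate 1 from the 36 h mean had an interquartile range of 2.05, against 0.56 for the mean of replicates 2 and 3. The correlation between both sets of differences was 0.25, and 81 of 226 had opposite signs, which is a description, since both use the same 36 h mean. Slide and the character of this array cannot be told apart. For miR-322 the differences were -1.27 in replicate 1 and -1.05 in the other set, and for miR-146a the gap between both sets was wider, 1.75 against 1.15.

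**Figure D3:**
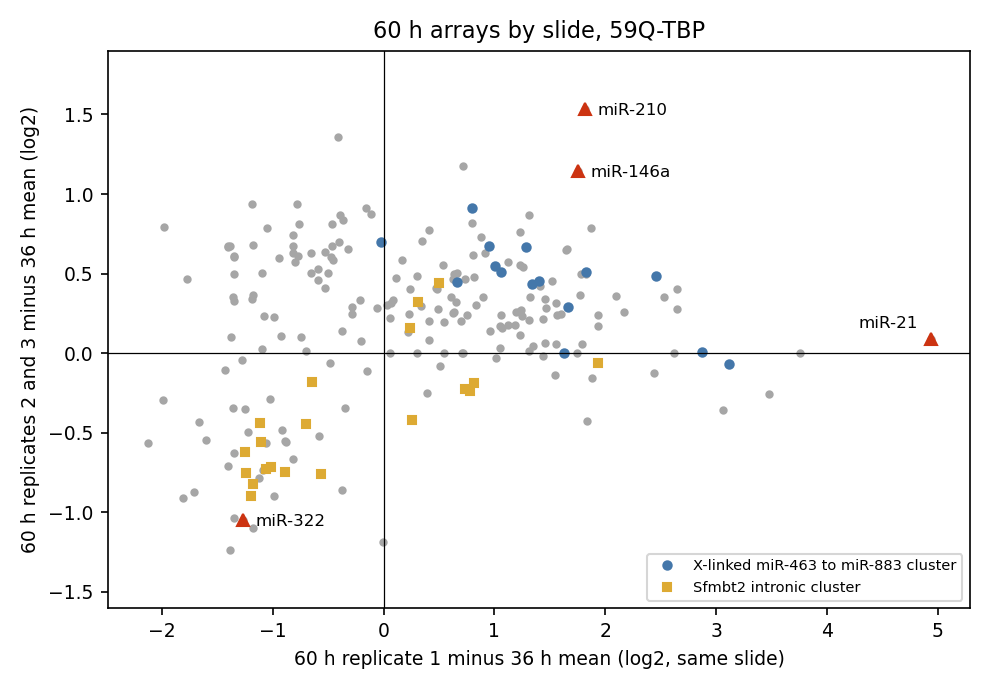
Difference from the 36 h mean (log2) of replicate 1 at 60 h, on the same slide (horizontal axis), and of the mean of replicates 2 and 3 at 60 h, on another slide (vertical axis), for the 226 miRNAs of 59Q-TBP cells (grey), with the X-linked miR-463 to miR-883 cluster in blue, the Sfmbt2 intronic cluster in yellow and 4 named miRNAs as red triangles. miR-210 and miR-146a are high and miR-322 low on both axes, whereas miR-21 is high on the horizontal axis alone.

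The list of stress and hypoxia miRNAs, chosen with earlier results of these data known, contains miR-210 and miR-146a. Of 15 entries, 8 were tested, and these 2 rose and none fell, where 0.885% of all miRNAs rose. All 8 had a higher mean at 60 h, as did 69.9% of all miRNAs, and the median difference was 0.75 against 0.32 for all miRNAs. The list includes miR-155, induced in inflammation, which was at -3.71, -3.68 and -3.51 at 36 h and at -4.11, -2.70 and -3.37 at 60 h. Those arrays overlap. miR-22, another member, differed by 0.42 without overlap between the times (limma adjusted p = 0.364). For the whole list the median difference was 1.58 for replicate 1 at 60 h and 0.45 for replicates 2 and 3, and it was 0.35 without both arrays that stood apart.

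Of 22 neuronal entries 9 were tested, and none passed the threshold. Their median difference was 0.59, against 0.32 for all miRNAs. Of the 9, 7 had a higher mean at 60 h, as did 69.9% of all miRNAs. The median was 0.96 for replicate 1 at 60 h, 0.40 for replicates 2 and 3, and 0.26 without both arrays that stood apart. miR-212 and miR-132 come from 1 primary transcript that neuronal activity induces, and they carry the seed AACAGUC shown above. miR-132 was at -3.48 in replicate 1 and at the floor in the others at 36 h, and at -2.49, -3.12 and -3.83 at 60 h (difference 0.75, limma adjusted p = 0.320). The times overlapped for miR-132 and not for miR-212. miR-138, which limits dendritic spine growth, differed by 0.43, and miR-134, a regulator of synaptic translation, by -0.01. Their arrays overlapped between the times. miR-218 was well above background on no array at 36 h and on 1 at 60 h. Its difference of 0.87 (limma adjusted p = 0.326) rests on replicate 1 alone. It is not a bound, since undetected arrays enter both means.

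All 3 miR-29 members, which repress collagens and pro-apoptotic BH3-only proteins, had a higher mean at 60 h, as did 69.9% of all miRNAs. None of the 3 passed the threshold. miR-29a was at -0.12, -1.59 and -0.86 at 36 h and at 0.93, -0.06 and -0.65 at 60 h (difference 0.93, limma adjusted p = 0.320). miR-29b was at 0.06, -0.997 and -0.40 and then at 1.12, 0.08 and -0.49 (difference 0.68, adjusted p = 0.331). miR-29c was at -2.12, -3.48 and -2.73 and then at -0.90, -1.67 and -2.31 (difference 1.15, adjusted p = 0.212). In each case replicate 1 at 60 h was the highest and replicate 2 at 36 h the lowest of the 6 arrays, and the times overlapped. Without these 2 arrays the differences of miR-29a, miR-29b and miR-29c were 0.13, -0.03 and 0.43.

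Within the miR-15/16 seed family, 5 of 6 members had a higher mean at 60 h, as did 69.9% of all miRNAs. miR-322 had a lower one, and none of the 6 passed the threshold. miR-16 was at 0.36, -0.81 and -0.28 at 36 h and at 1.31, 0.24 and -0.09 at 60 h, a difference of 0.73. miR-15a differed by 0.38, miR-195 by 0.64, miR-15b by 0.68 and miR-497 by 0.80. All 5 overlapped between the times, unlike miR-322. Of the miRNAs encoded beside miR-322 on the X chromosome, 4 of 9 entries were tested. miR-503, which lies next to it, was higher by 0.35, with every 60 h array above every 36 h array (limma adjusted p = 0.346), miR-450a-3p by 0.10, and miR-542-3p was lower by 0.20. The median difference of the 4 was -0.05.

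The miR-17 to miR-92, let-7 and miR-30 groups, linked to growth and differentiation, had median differences above the 0.32 of all miRNAs. No member passed the threshold, and 69.9% of all miRNAs had a higher mean at 60 h. In the paralogous clusters of miR-17 to miR-92, oncogenic miRNAs that MYC induces, all 11 tested of 14 entries had a higher mean, with a median difference of 0.52. miR-20a differed by 1.15 and miR-19b by 0.81. All 8 tested of 9 let-7 and miR-98 entries, which repress Lin28 and growth genes, had a higher mean, with a median of 0.47. All 5 miR-30 members, repressors in differentiation and autophagy, did too, with a median of 0.78. miR-30d was at -1.97, -2.84 and -2.28 at 36 h and at -1.13, -1.51 and -1.69 at 60 h, without overlap (difference 0.92, limma adjusted p = 0.254).

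The group of miR-103, miR-107 and miR-26, whose members lie in introns of pantothenate kinase and CTD phosphatase genes, had a median of 0.88 over 4 members. miR-103 differed by 0.98 and its near-identical relative miR-107 by 0.78. For miR-23, miR-24 and miR-27 the median was 0.38 over 5 members, with miR-23b at 0.68 and miR-23a at 0.57. It was 0.46 over the 3 tested of 5 entries of miR-125, miR-99 and their kin, with miR-125b-5p at 0.76 and miR-125a-5p at 0.37. It was 0.21 over 4 miR-181 members, all close to the floor, with miR-181b at 0.48 and miR-181d at 0.18. No member of these groups passed the threshold.

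These medians moved with the arrays that stood apart. For the miR-17 to miR-92 clusters the median was 1.44 in replicate 1 at 60 h and 0.24 in replicates 2 and 3, and it was -0.15 without the 2 arrays. For let-7 and miR-98 the corresponding values were 1.14, 0.12 and -0.16, and for the miR-30 family 1.83, 0.26 and 0.08. Without them the median was 0.13 for miR-103, miR-107 and miR-26, -0.20 for the miR-125 and miR-99 entries, 0.095 for miR-23, miR-24 and miR-27, 0 for the miR-181 family and -0.026 for the miR-15/16 seed family, while the median of all miRNAs was 0.07.

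In the list of miR-199a-5p, miR-199b*, miR-214 and miR-214*, which arise from the Dnm3os transcript and its paralogous locus, all 4 members had a higher mean, from 0.52 to 0.55, with a median of 0.63 in replicate 1 at 60 h and 0.48 in replicates 2 and 3. The share with a higher mean was 69.9% over all miRNAs. miR-214 was at -0.54, -1.03 and -0.81 at 36 h and at -0.17, -0.06 and -0.59 at 60 h, and miR-199a-5p differed by 0.54. Both overlapped between the times, and no member passed the threshold (limma adjusted p = 0.320 for both). The entry shared by miR-199b and miR-199a-3p was not in this list, and at 60 h it was at -0.26 in replicate 1 against -3.88 and -4.10 in the other two.

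The Sfmbt2 intronic cluster, a rodent family of repeat-derived miRNAs that includes miR-466, miR-467, miR-669 and miR-297, was the group with the lowest median, -0.60. Of 25 entries 20 were tested, 13 had a lower and 7 a higher mean at 60 h, and none passed the threshold. miR-466g was at 0.25, 1.47 and 0.95 at 36 h and at -0.36, -0.31 and 0.84 at 60 h (difference -0.83, limma adjusted p = 0.320). Replicate 3 at 60 h lay within the 36 h arrays. miR-467b differed by 0.46 in the opposite direction. Of its tested entries, 3 carry several names, and how far its members share signal was not tested. Without the 2 arrays that stood apart the median was -0.18. In 16Q-TBP cells the median over the same interval was -0.80, and 0 of the 20 had a higher mean at 60 h.

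In the Dlk1-Dio3 imprinted cluster, a large set of maternally expressed miRNAs of brain and embryo, 12 of 70 entries were tested. Their median difference was 0.11, with 7 higher and 5 lower and none past the threshold. miR-485* was at -3.45, -0.72 and -1.85 at 36 h and at -3.40, -4.09 and -2.41 at 60 h, the lowest difference of the 226 at -1.29 (limma adjusted p = 0.320). It was lower on replicate 2 at 60 h than on any 36 h array, whereas the other two lay within their range. miR-434-3p differed by -0.87. The median was -0.92 in replicate 1 at 60 h and 0.57 in replicates 2 and 3, so the direction differed between the arrays.

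The same was true of the array entries miR-680 to miR-721, several of which are fragments of other RNAs. Of 43 entries 23 were tested, with a median of -0.05 over the 3 arrays, -1.09 in replicate 1 at 60 h and 0.33 in replicates 2 and 3. Of the star strands, the passenger arms of the hairpins, 24 of 115 were tested. Their median was -0.10, and miR-470* (0.87) and miR-140* (0.75) had the largest statistics. It was -0.85 in replicate 1 at 60 h and 0.15 in replicates 2 and 3. Among 17 entries of muscle, liver and blood, 3 were tested, with miR-143 at a difference of 0.78 and miR-206 at -0.66, and none of the 10 epithelial and sensory entries could be tested. No member of these 4 groups passed the threshold.

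**Figure D4:**
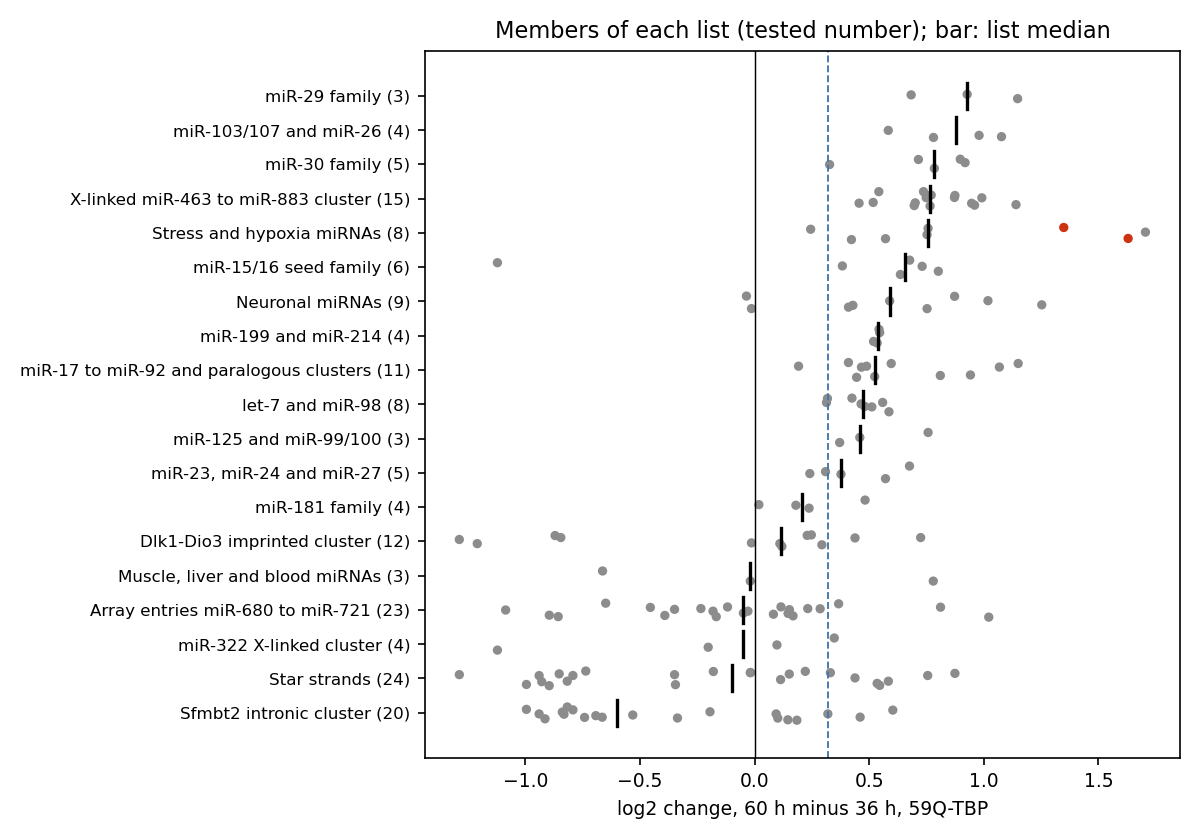
Difference between 60 h and 36 h (log2, horizontal axis) of each tested member (point) of the groups of miRNAs, with the number tested in brackets, the group median as a bar and the median of all 226 miRNAs dashed. The red points are miR-210 and miR-146a, and the Sfmbt2 intronic cluster has the lowest median at -0.60.

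The difference between times was then set against the same interval in 16Q-TBP cells. There, 1 of 226 miRNAs (0.442%) passed the threshold, miR-210, which differed by 1.24 (SE 0.252, limma adjusted p = 0.033). The arrays of 16Q-TBP cells were at -2.76, -3.28 and -3.06 at 36 h and at -1.76, -1.87 and -1.74 at 60 h. Without a slide term, no miRNA passed the test that its change in 59Q-TBP cells differed from that in 16Q-TBP cells (limma interaction contrast, 0 of 226, 0%, adjusted p under 0.05), and 27 (11.9%) had an unadjusted p under 0.05. That count changed with the slide: replicates 1 and 2 of 16Q-TBP at 36 h lay on slide 1 and the other 16Q-TBP arrays of these times on slide 2. With slide as a fixed block limma called 67 miRNAs, within slide 2 it called 44, and with slide as a random block 0. The first 2 counts rest on replicate 1 of 59Q-TBP at 60 h alone for that group. Within slide 2, the 16Q-TBP group at 36 h is likewise replicate 3 alone. The difference between the constructs' changes was 0.39 (SE 0.357, adjusted p = 0.623) for miR-210.

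For miR-146a the 16Q-TBP arrays were at -1.24, -1.25 and -1.23 at 36 h and at -0.92, -0.69 and -0.55 at 60 h, a change of 0.52 (limma adjusted p = 0.369). The change in 59Q-TBP cells exceeded it by 0.83 (SE 0.389, adjusted p = 0.400), so it was not shown to differ. The 2 constructs were close at 60 h, at means of -0.74 ± 0.42 in 59Q-TBP and -0.72 ± 0.19 in 16Q-TBP (SD, n = 3), and lay apart at 36 h, at -2.09 ± 0.37 and -1.24 ± 0.0080. At 24 h the means were -2.05 ± 0.09 in 59Q-TBP and -2.24 ± 0.42 in 16Q-TBP. The 59Q-TBP level was thus similar at 24 h and 36 h and higher at 60 h. The 16Q-TBP mean was already higher at 36 h than at 24 h.

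miR-210 in 59Q-TBP cells was at -3.45 ± 0.24 at 24 h, -3.49 ± 0.38 at 36 h and -1.86 ± 0.26 at 60 h (SD, n = 3). miR-322 was at 1.02 ± 0.23, 0.80 ± 0.55 and -0.32 ± 0.13 at these times. In 16Q-TBP cells miR-322 was at -1.96 ± 0.23 at 36 h and -1.92 ± 0.15 at 60 h, and the change in 59Q-TBP cells was lower by 1.16 (SE 0.406, limma adjusted p = 0.400). At 60 h every 59Q-TBP array was still above every 16Q-TBP array for this miRNA.

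**Figure D5:**
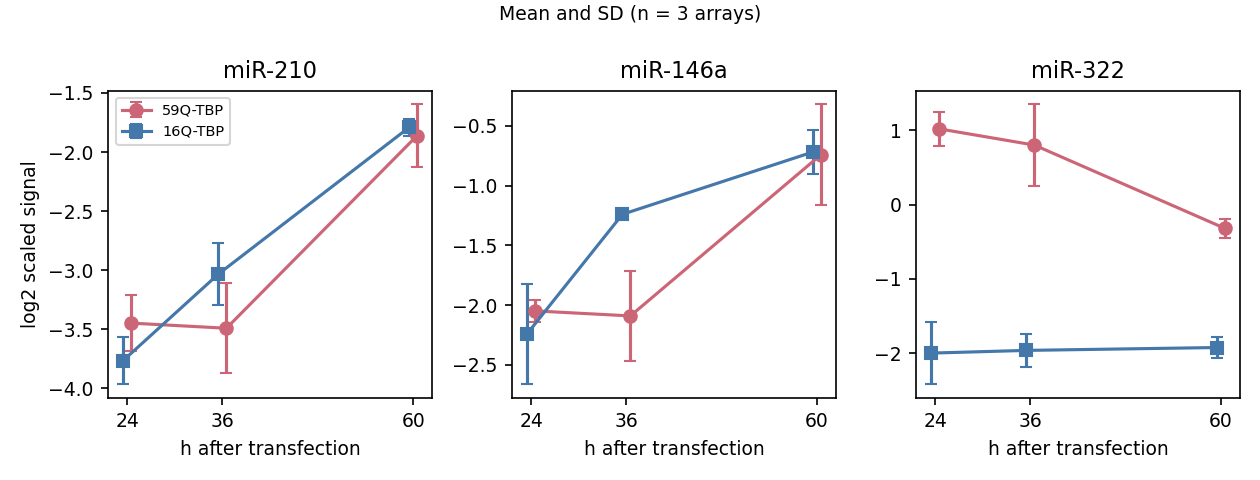
Mean log2 scaled signal with SD (n = 3 arrays) against hours after transfection for miR-210, miR-146a and miR-322 in 59Q-TBP (red circles) and 16Q-TBP (blue squares) cells, with points offset sideways for clarity. Between 36 h and 60 h miR-210 is higher in both constructs, and miR-322 is lower in 59Q-TBP cells, from 0.80 to -0.32, while it stays near -1.9 in 16Q-TBP cells.

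The 5 smallest p for the difference between the constructs' changes, each with a limma adjusted p of 0.400, were those of let-7i (1.69), miR-30e (1.32), miR-322 (-1.16), miR-214* (1.07) and the entry shared by miR-199b and miR-199a-3p (2.64). With slide as a fixed block 4 of the 5 passed: let-7i (2.74, limma adjusted p = 0.00631), miR-30e (2.05, 0.0167), miR-214* (1.52, 0.0398) and the shared miR-199 entry (5.47, 0.000142), while miR-322 did not (lowest adjusted p of its alternatives 0.125). let-7i was at -2.89, -3.90 and -3.39 at 36 h and at -1.84, -2.99 and -3.68 at 60 h in 59Q-TBP cells, which overlap. In 16Q-TBP cells it was at -1.84, -2.33 and -2.01 and then at -3.04, -3.40 and -3.13, which do not. The shared miR-199 entry rested on replicate 1 of 59Q-TBP at 60 h, at -0.26 against -3.88 and -4.10 in the other two.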

How the data were processed

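Per the labels, total RNA (Trizol) of each sample was hybridised to its own Cy3-labelled Agilent mouse miRNA array. The authors' scanner files hold, per the file headers, spot intensity values that Agilent Feature Extraction (version 9.5.1.1) wrote, with a background-subtracted processed signal. The deposited series table holds log2 values that equal the unscaled net intensity and served as an alternative. The processed signal of unflagged spots was averaged per probe, scaled, floored and taken to log2, and a miRNA is the mean of its tested probes (557 probes, 226 miRNAs, 46 with 1 probe). Names follow the array design, which may be outdated. For miR-18a*, the bound was taken against the lowest detected signal of each 60 h array, or the floor where that was higher.

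limma 3.58.1 in R 4.3.3 (lmFit, eBayes) fitted 6 group means over 18 arrays (12 residual degrees of freedom), and p-values were adjusted by Benjamini-Hochberg over the 226 miRNAs, with a threshold of 0.05. An exact permutation of 3 against 3 arrays cannot go below 0.1 and was not used. The fit was tested on simulated data with independent noise. These had no slide effect and no arrays that stood apart, so they do not address those features. The rule named miRNAs past the threshold or with the 5 smallest p in each direction and for the interaction, the miR-29 members, miR-322 and the 2 members with the largest statistic in each list, and other names were chosen after their values were seen. Members and lists were chosen with earlier results of these data known. Alternatives concerned background, scaling, filter, floor, probes, the deposited table, eBayes options, replicate and slide blocks, and arrays left out.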

Additional observations from a re-analysis of the deposited data

How the results depend on the processing

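The 2 rises became 0 with normexp background correction, without scaling between arrays, with the deposited log2 table and with only the 6 arrays compared (14, 3, 17 and 6 at an unadjusted p under 0.05), 49 with slide as a fixed block, 30 within the shared slide, 1 without both arrays that stood apart, and 1 to 2 when single arrays were left out. The count of falls was 1 with the percentile over all probes, 1 with the floor 4 times higher, 10 with the slide block, 8 within the slide, 1 without both arrays and 0 to 1 when single arrays were left out. The interaction count was 1 with the higher floor, 67 with the slide block and 44 within the slide. miR-210 lost its call with normexp (0.61), no scaling (1.41), the deposited table (0.82) and only the arrays compared (1.63). Without single arrays its difference ranged from 1.44 to 1.82. miR-146a lost its call under the same settings (0.83, 1.04, 0.82 and 1.35) and without both arrays (0.95). It also lost the call in 4 of 6 fits without a single array (range 1.15 to 1.56). The causes were not tested. Both kept a positive difference in all 22 alternatives, and miR-322 a negative one. Some of these alternatives, such as the eBayes options and the replicate block, left the difference itself unchanged and could not turn its sign.

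Without both arrays that stood apart the sign turned for miR-29b (-0.034), let-7i (-0.19), let-7a (-0.17), miR-20a (-0.11), miR-23b (-0.036), miR-23a (-0.12), miR-125b-5p (-0.25), miR-125a-5p (-0.082) and miR-181d (-0.0031), and for miR-181d also without replicate 1 at 60 h (-0.0021, with other single arrays left out up to 0.271). With the higher floor, miR-685, miR-125a-5p, miR-181b, miR-181d, miR-132, miR-143 and miR-206 gave no difference, since every array was at the floor. The same held for miR-214*, named above for its difference between the constructs' changes.

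Same-numbered arrays at 36 h and 60 h deviated from their group means with correlations of 0.38, -0.32 and 0.48. Differently numbered arrays ran from -0.68 to 0.59. Deviations from a mean of 3 arrays depend on each other, so whether the numbers pair the samples cannot be decided from these values. With the replicate number as a block the counts stayed at 2 rises, 0 falls (limma, 22 and 2 unadjusted) and 0 for the interaction (19 unadjusted), and miR-210 (1.63, adjusted p = 0.00302) and miR-146a (1.35, 0.0486) kept their calls. The median difference of all miRNAs was 0.17 with normexp, 0.19 with quantile normalization, 0.22 with the percentile over all probes and 0.07 without both arrays. Signal over background limits the precision of dim miRNAs, since 71 of the 226 were not well above background on at least 1 of the 6 arrays.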

Other observations

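A group outside the lists, chosen after the values were seen, was the X-linked cluster from miR-463 to miR-883, testis-rich miRNAs encoded close together on the mouse X chromosome. Of 25 entries 15 were tested, and all 15 had a higher mean at 60 h, as did 69.9% of all miRNAs. Their median difference was 0.77, and none passed the threshold. miR-470, a member of it, was at -0.68, -1.65 and -1.16 at 36 h and at -0.16, -0.40 and -0.83 at 60 h, a difference of 0.70. miR-883a-5p was at -2.35, -3.92 and -2.81 and then at -1.74, -2.10 and -2.62, a difference of 0.87. The arrays of the 2 times overlapped for both. In 16Q-TBP cells the median of the 15 was -0.04, and 7 of them had a higher mean at 60 h. For all miRNAs the 16Q-TBP median was -0.01, with 108 of 226 higher. Such a contrast was not particular to this cluster. The 16Q-TBP median was -0.59 for the miR-30 family and -0.57 for the miR-17 to miR-92 clusters, and 0.29 for the stress and hypoxia miRNAs. The median was 1.34 in replicate 1 at 60 h of 59Q-TBP, 0.48 in replicates 2 and 3, and 0.15 without both arrays that stood apart. Since the group was chosen for its pattern, these values are a description without a test.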
